A study of Mus musculus with 3 samples.

Results

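Histone genes matched by symbol in the mouse RefSeq annotation (H1f, H2ac, H2bc, H3c or H4c followed by a number, protein-coding) were read for acetylation of histone H3 at lysine 27 (H3K27ac) in T cell precursors. The rule gave 67 of 21887 protein-coding genes on the assembled chromosomes and used no measured value. They comprise 10 linker histone genes (H1) and the core histone genes, 17 of H2A, 16 of H2B, 12 of H3 and 12 of H4. Of the 67, 53 lie on chromosome 13, 10 on chromosome 3 and 2 each on chromosomes 15 and 6. No gene of chromosome 11 matched the symbols.

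The cells were CD4-CD8- double-negative thymocytes, labelled CD25+CD44-/+, sorted from thymus of wild-type C57BL/6J mice of 5 to 7 weeks. H3K27ac is known from promoters and enhancers in use. An H3 antibody pulled down chromatin holding that histone, an H3K27ac antibody then selected from it, and the DNA of 2 replicates was sequenced. The labels also name 1 input sample, not analysed here, so no control background is given. With 1 group of 2 replicates there is no comparison between conditions, and values are given for each replicate. Nothing in the labels says whether the replicates came from separate animals. Replicate 1 had 12377 peaks and replicate 2 had 9477. Of 12 defining genes of the double-negative stage, 5 (Cd3d, Cd3e, Cd3g, Dntt and Tcf7) had peaks of both replicates at a gene end. That is 41.7%, against 16.8% of all protein-coding genes. Gata3, Notch1, Rag1 and Rag2 lacked such peaks in each replicate. The Cd3 genes lie close together on chromosome 9, and their peaks had low folds over the caller's background, 1.05 to 1.23. Cd3g and Cd3d share 1 replicate 1 peak, and at Cd3g 0 bp lay under peaks of both replicates. These genes are thus weak evidence of cell identity. None of the 26 later thymocyte, B cell, myeloid, erythroid and stromal markers read had a gene-end peak in either replicate.

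Core histones H2A, H2B, H3 and H4 form the protein spool of the nucleosome, and H1 binds the linker DNA between spools. Most of their genes are replication-dependent: they are short, lack introns, are transcribed in S phase under the coactivator NPAT, and give mRNAs that end in a stem-loop instead of a poly(A) tail. A few relatives, such as the linker genes H1f0 and H1f10, are single genes that are expressed outside S phase, and others serve germ cells. Double-negative thymocytes include rapidly dividing cells, which need new histones at each round of DNA replication.

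Promoter sequences are shown first. Each run is the 250 bases before the annotated start, from RefSeq (GRCm38.p6), read 5′ to 3′ on the strand of the gene. Starts were given for 62 of the 67 genes. Not matched were H2bc21, H4c14, H3c7, H2bc4 and H3c1. For each histone type the gene with peaks of both replicates and the smallest p-values is shown, followed, where a clustered gene of that type had no peak in either replicate, by 1 such gene. Capitals mark, on either strand, the TATA box TATAAA, the CCAAT box CCAAT, the octamer ATTTGCAT and the H1 box AAACACA. Overlapping matches are merged. A gene with peaks has them within 1 kb of either gene end, not always over the bases shown. At H2ac24 peaks of both replicates covered the whole run. At H1f3 they began after it, at 23555242 and 23555333, and at H4c3 they stopped inside the gene, at 23698193 and 23698237. At H3c8 and H2bc15 the replicate 1 peak covered the run. The replicate 2 peak missed it at H3c8 and touched its last base at H2bc15.

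The linker genes H1f3, with peaks (chr13:23554782-23555031, plus strand), and H1f6, the testis linker gene without a peak (chr13:23695561-23695810, plus strand), both hold an H1 box and a CCAAT box.
H1f3: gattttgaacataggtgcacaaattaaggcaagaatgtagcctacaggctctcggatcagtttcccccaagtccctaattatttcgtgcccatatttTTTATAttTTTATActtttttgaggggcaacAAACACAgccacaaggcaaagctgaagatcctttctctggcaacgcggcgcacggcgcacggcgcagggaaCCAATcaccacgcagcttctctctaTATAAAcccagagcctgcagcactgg
H1f6: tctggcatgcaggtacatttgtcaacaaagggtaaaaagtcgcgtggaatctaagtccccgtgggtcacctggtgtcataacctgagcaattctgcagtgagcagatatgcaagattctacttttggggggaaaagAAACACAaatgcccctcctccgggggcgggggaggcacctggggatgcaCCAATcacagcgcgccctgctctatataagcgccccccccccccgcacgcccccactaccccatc

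The H2A gene H2ac24, with peaks (chr13:21833476-21833725, minus strand), holds CCAAT boxes alone. H2ac1 and H2bc1, a testis pair without a peak, share most of one interval (chr13:23934187-23934436, plus strand, and chr13:23934157-23934406, minus strand), and the H2B gene H2bc15 has peaks (chr13:21753826-21754075, plus strand).
H2ac24: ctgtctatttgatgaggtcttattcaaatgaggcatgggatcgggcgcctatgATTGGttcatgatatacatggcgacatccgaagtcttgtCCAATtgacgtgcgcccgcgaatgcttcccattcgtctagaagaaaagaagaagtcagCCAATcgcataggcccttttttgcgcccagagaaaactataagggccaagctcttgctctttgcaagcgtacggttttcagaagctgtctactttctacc
H2ac1: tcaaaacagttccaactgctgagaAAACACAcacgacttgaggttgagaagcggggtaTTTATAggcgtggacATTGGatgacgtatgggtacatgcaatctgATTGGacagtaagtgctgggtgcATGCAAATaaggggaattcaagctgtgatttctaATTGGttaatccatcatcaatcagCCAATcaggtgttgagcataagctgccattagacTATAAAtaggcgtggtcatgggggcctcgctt
H2bc15: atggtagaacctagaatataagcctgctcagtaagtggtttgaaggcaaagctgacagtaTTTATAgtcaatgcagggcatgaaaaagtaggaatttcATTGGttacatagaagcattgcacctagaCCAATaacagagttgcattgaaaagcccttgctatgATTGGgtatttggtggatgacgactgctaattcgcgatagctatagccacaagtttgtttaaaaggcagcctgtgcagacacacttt
H2bc1: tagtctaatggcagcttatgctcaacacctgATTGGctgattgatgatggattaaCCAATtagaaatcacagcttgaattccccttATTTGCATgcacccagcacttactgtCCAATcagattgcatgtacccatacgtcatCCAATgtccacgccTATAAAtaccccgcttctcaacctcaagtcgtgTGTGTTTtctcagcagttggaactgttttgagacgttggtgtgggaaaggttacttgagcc

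The H3 gene H3c8 (chr13:23535168-23535417, plus strand) and the H4 gene H4c3 (chr13:23698459-23698708, minus strand) have peaks of both replicates, and H4c12 (chr13:21750554-21750803, minus strand) has none. Every H3 gene had peaks of both replicates, so no H3 gene without a peak is shown.
H3c8: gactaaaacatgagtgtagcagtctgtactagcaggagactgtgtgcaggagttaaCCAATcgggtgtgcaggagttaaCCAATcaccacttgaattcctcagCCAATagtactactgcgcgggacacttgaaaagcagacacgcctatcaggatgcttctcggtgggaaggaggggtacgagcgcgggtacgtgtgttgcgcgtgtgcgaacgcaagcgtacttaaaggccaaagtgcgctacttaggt
H4c3: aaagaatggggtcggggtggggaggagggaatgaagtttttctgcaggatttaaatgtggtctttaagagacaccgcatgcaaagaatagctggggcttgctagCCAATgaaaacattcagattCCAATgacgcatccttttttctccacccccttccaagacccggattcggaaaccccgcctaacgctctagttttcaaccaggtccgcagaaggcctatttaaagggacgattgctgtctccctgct
H4c12: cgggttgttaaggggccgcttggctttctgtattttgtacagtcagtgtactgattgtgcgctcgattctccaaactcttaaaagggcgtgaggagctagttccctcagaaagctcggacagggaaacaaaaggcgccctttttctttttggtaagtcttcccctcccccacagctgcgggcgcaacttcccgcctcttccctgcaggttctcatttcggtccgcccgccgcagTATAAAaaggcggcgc

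The boxes were spread unevenly over the histone types. The CCAAT box was found in 49 of the 62 promoters (79.0%, against 33.8% of 32788 other promoter windows of the same length). It was in all 17 H2A and all 14 H2B promoters, 8 of 10 H3 and 7 of 10 H1 promoters, but in 3 of 11 H4 promoters. The TATA box was in 28 of 62 (45.2%, against 12.3% of other windows), counted on either strand and at any distance. Among H2B promoters it read in the direction of the gene in 3 and on the opposite strand in 4. On the strand of the gene its median distance from the start was 27.5 bases in H1, 32.5 in H2A and 43 in H2B promoters. In H3 and H4 promoters it was 147 and 127.5 bases. The octamer, an element known from H2B promoters, was in 6 of 14 H2B and 6 of 17 H2A promoters, against 1.56% of other windows, and in no H1, H3 or H4 promoter. In H2B promoters it read in the direction of the gene, and in H2A promoters on the opposite strand. Where an H2A and an H2B gene start close together on opposite strands, the bases before their starts overlap. H2ac1 and H2bc1, H2ac12 and H2bc12, and H2ac8 and H2bc8 each share 1 octamer, counted in both genes. For these the opposite strand follows from the layout. CCAAT boxes of such pairs can likewise be counted in both genes. The H1 box was in 5 of 10 H1 promoters (6.23% of other windows), with a median distance of 115 bases from the start. Genes with peaks of both replicates held a TATA box in 19 of 46 cases and the remaining genes in 9 of 16. The CCAAT box was in 40 of 46 and 9 of 16. These counts mix histone types, since every H2A and H2B promoter held it, with peaks of both replicates or not. In the second group the promoters without it were H1f0, H1f7 and H1f10 of H1, and H4c2, H4c6, H4c9 and H4c12 of H4. A link between the boxes and peaks was not tested. A match is a run of letters and not a measured binding site.

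Most histone genes carried H3K27ac. Acetylated, or called, is used here of a gene whose ends, widened by 1 kb on each side, were touched by a peak of both replicates, by at least 1 bp. This held for 51 of 67 histone genes (76.1%), where 16.8% of all protein-coding genes were called. Replicate 1 alone had a gene-end peak at 55 (82.1%, against 25.1% of all protein-coding genes) and replicate 2 at 56 (83.6%, against 22.2%). A peak in only 1 replicate was found at 9 genes, and 7 had none. Histone genes are short (median 496 bp, against 17239 bp for other protein-coding genes), so the windows around their ends merge to a median of 2496 bp, against 4002 bp. The higher share was thus found in smaller windows.

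**Figure D1:**
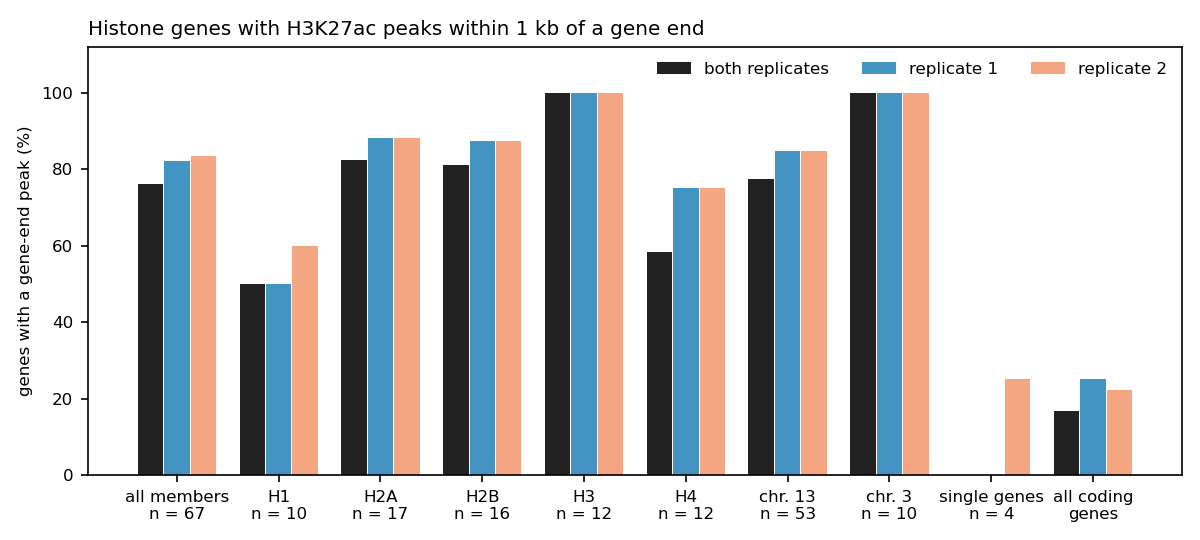
Bars give the percentage of genes with an H3K27ac peak within 1 kb of a gene end in both replicates (black), replicate 1 (blue) and replicate 2 (orange), for all 67 histone genes, by type, by cluster, and for all 21887 protein-coding genes at the right. All 12 H3 genes and all 10 genes on chromosome 3 stand at 100%, and of the 4 single genes only H1f0 has a peak, in replicate 2.

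The number of genes overstates the number of separate acetylated sites, since neighbours share peaks. Gene-end peaks of the histone genes numbered 31 in each replicate, and 19 of them in each replicate lay at more than 1 histone gene. Overlapping peaks of both replicates joined into 26 shared regions, which hold all 51 called genes and H4c9, whose own window reached only the replicate 1 peak. Of the 26 regions, 17 held 2 or more histone genes, and the largest held 5. Calls of neighbouring genes are therefore not independent.

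On chromosome 13 the genes fall into a first stretch of 328 kb (21715711 to 22043658, 22 genes) and a second of 404 kb (23531044 to 23934913, 31 genes), taking gaps above 1 Mb as breaks. In the first stretch 16 of 22 genes were called, and in the second 25 of 31. Peaks of both replicates covered 42.6 bp per kb in the first stretch and 44.4 bp per kb in the second, against 1.29 bp per kb over chromosome 13. On chromosome 3, a compact stretch of 50.3 kb (96219885 to 96270192) had all 10 genes called and 123 bp per kb, against 0.780 bp per kb over that chromosome. The span of each chromosome was taken as the end of its last annotated gene.

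Within the stretches most peaks sat on the histone genes, and little of the space between was covered. Space within 1 kb of a histone gene or inside one made up 16.6% of the first chromosome 13 stretch, 25.9% of the second and 34.8% of the chromosome 3 stretch. It held 85.4%, 99.2% and 100% of the bp covered by both replicates. In the remaining space peaks of both replicates covered 0.746% of the first stretch and 0.0475% of the second, and none of the chromosome 3 stretch. Put in the same unit, the first share is above the 1.29 bp per kb of chromosome 13, and the second is below it. Replicate 1 had 4 peaks and replicate 2 had 3 peaks clear of all histone genes, all 7 in the first stretch.

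**Figure D2:**
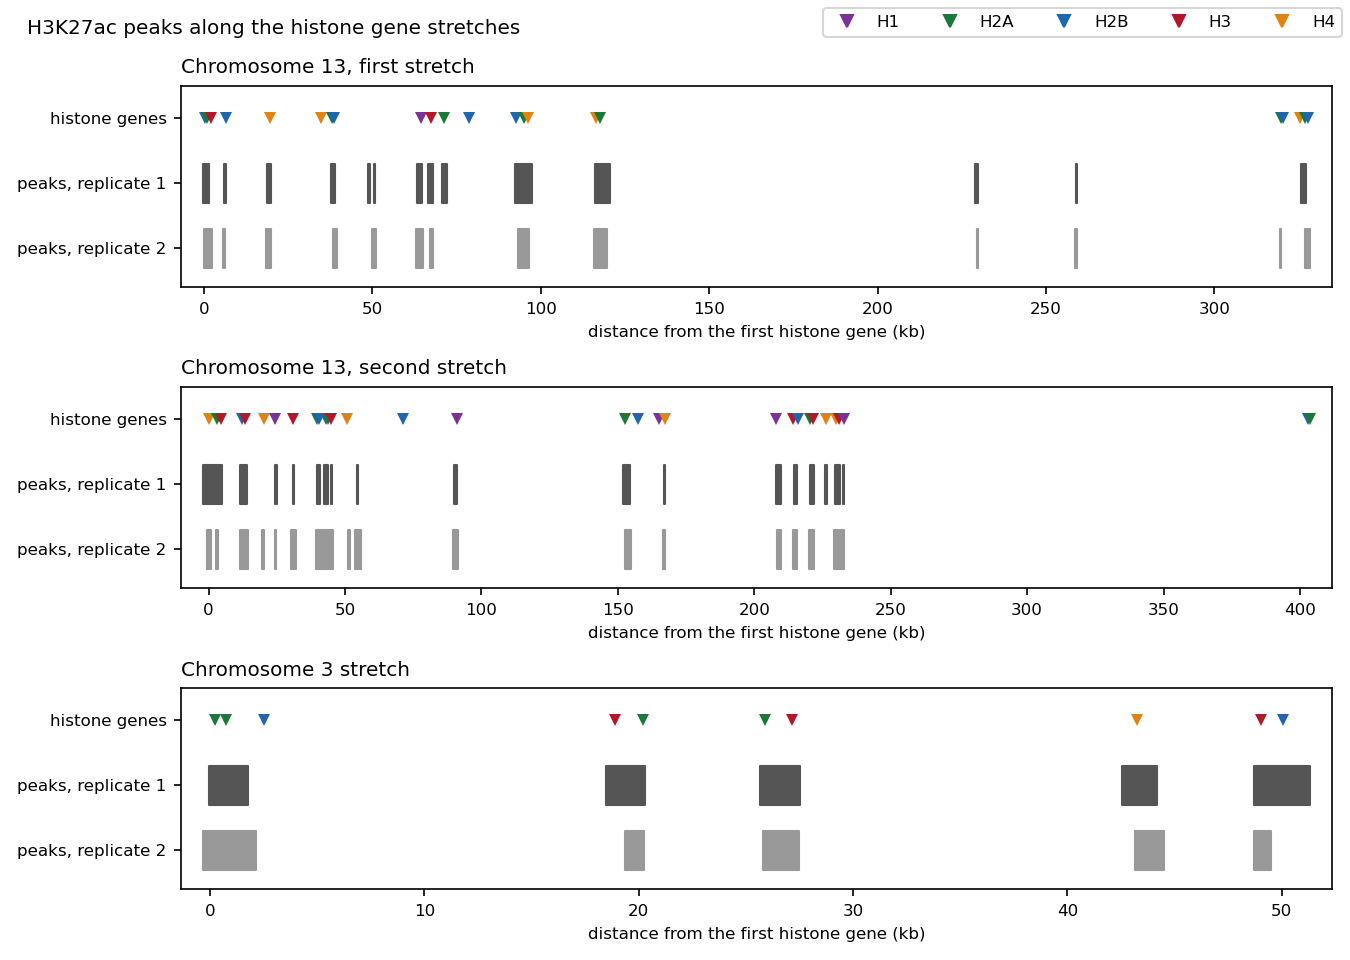
Histone genes (triangles at the gene midpoint, coloured by type) and all H3K27ac peaks of each replicate (bars) are drawn along the 3 stretches, with distance from the first histone gene in kb. Peaks gather under the triangles in both replicates, and the testis pair at the right end of the second stretch has none. H2bc6 has a long annotated body, so its triangle stands away from its peaks.

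The clustered somatic linker genes were all called, though none had a q-value of at most 0.05 in both replicates. H1f2, H1f3, H1f4 and H1f5 encode H1.2, H1.3, H1.4 and H1.5, the main linker histones of dividing cells. H1f5 (21779832 to 21780625) had peaks of 1562 bp and 2138 bp in replicates 1 and 2, with folds over the caller's background of 2.28 and 2.75. H1f4 (23621777 to 23622558) had peaks of 1347 bp and 1823 bp, with folds of 1.95 and 3.25. H1f3 (23555032 to 23555807) stood out among these by its narrow peaks, 740 bp and 555 bp, with folds of 2.99 and 2.32. H1f2 (23738807 to 23739531) had peaks of 1875 bp and 1126 bp and folds of 2.18 and 2.32. That of replicate 2 began at 23739548, beyond the 3′ end of the gene. H1f1, which encodes H1.1, a linker histone of thymus and testis among other tissues, had a peak of 293 bp in replicate 1 (fold 2.80) and lay at the edge of a peak of 3682 bp in replicate 2 (fold 2.40). At none of the 10 H1 genes was the start itself under peaks of both replicates, and at 3 it was under a peak of replicate 2.

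The other linker genes had no gene-end peaks of both replicates. H1f6, the testis linker gene, lies inside the second chromosome 13 stretch (23695811 to 23696545) yet had no gene-end peak, with the nearest peaks at 1371 bp and 1119 bp. H1f7 on chromosome 15, known from spermatids, was 110477 bp and 98607 bp from a peak. H1f8 on chromosome 6, the oocyte linker gene, was 69044 bp and 119389 bp away. H1f10 on chromosome 6, a replication-independent linker gene, was likewise far, at 62123 bp and 53479 bp. H1f0 on chromosome 15 (79028212 to 79030504), the replication-independent gene known from non-dividing cells, had a peak of 365 bp in replicate 2 alone, with a fold of 1.66 and a −log10 q of 0.547. A list of 6 genes known from testis or oocytes had 1 called, H1f1, which is also known from thymus, and the other 5 had no peak in either replicate. That share, 16.7%, is near the 16.8% of all protein-coding genes, so it is no contrast to them. The 2 replication-independent linker genes had 0 called, which are too few for a contrast. The other 59 histone genes had 50 (84.7%, against 16.8% of all protein-coding genes).

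H2A and H2B genes were called in 14 of 17 and 13 of 16 cases. Many are arranged head to head, so that an H2A and an H2B gene start from 1 short interval, which is the known layout of these clusters. Among genes with annotated starts there were 9 such pairs, all on chromosome 13, with 164 to 281 bp between the starts (median 180 bp). Both genes were called in 6 of the 9 pairs. A single peak spanned both starts in 6 pairs in replicate 1, in 5 in replicate 2 and in 4 in each replicate. Those 4 were H2bc13 with H2ac13, H2bc23 with H2ac23, H2ac8 with H2bc8 and H2bc7 with H2ac7.

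The peaks at these pairs were wide. H2bc23 and H2ac23 lay with the H4 gene H4c17 under a replicate 1 peak of 5052 bp (21807994 to 21813045, fold 3.17) and a replicate 2 peak of 3253 bp (fold 2.16). The block H2ac8, H2bc8, H2bc7, H2ac7 and the H3 gene H3c4 lay under a single replicate 2 peak of 5999 bp (23570518 to 23576516, fold 2.99), the widest at histone genes in that replicate. In replicate 1 the same block held 3 separate peaks, with folds of 1.92, 2.09 and 2.56. At H2bc13 and H2ac13 a replicate 1 peak of 1516 bp had a fold of 1.61, the lowest of the histone peaks in that replicate, and a replicate 2 peak of 2475 bp that reached the H3 gene H3c10 had a fold of 2.0.

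Other pairs showed how far the replicates differed in placement. At H2ac15 and H2bc15 the replicate 1 peak (1144 bp, fold 2.02) ended inside H2bc15. That of replicate 2 (1199 bp, fold 3.78) began where H2bc15 starts, so 462 bp were common. At H2ac11 and H2bc11, peaks of 1324 bp (fold 1.98) and 1542 bp (fold 3.22) met over 340 bp. H2ac22 and H2bc22 had a peak of 1488 bp in replicate 1 alone (fold 2.46, −log10 q 1.25), and H2ac12 and H2bc12 one of 365 bp in replicate 2 alone (fold 3.0, −log10 q 2.14). The pair H2bc1 and H2ac1 had no peak within 37356 bp in replicate 1 and 169810 bp in replicate 2.

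The remaining H2A and H2B genes lie outside such pairs or have no start in the table. H2ac24 and the H4 gene H4c18 shared peaks of 4431 bp and 3842 bp (folds 2.61 and 3.76). H2ac6 and H2bc4 shared peaks of 2593 bp and 2212 bp (folds 2.74 and 2.46). H2bc14 had narrower peaks of 723 bp and 395 bp (folds 2.16 and 3.28). H2bc9 lay with H3c7 under peaks of 2294 bp and 2785 bp (folds 2.11 and 2.56), and H2bc3 with H3c3 beside peaks of 1038 bp and 1428 bp (folds 2.13 and 2.60). H2bc6 needs care, because its annotated body runs from 23583670 to 23621124, near H1f4, and the peaks that called both genes are the same ones. They cover its outer start at 23621094. RefSeq also gives it a start at 23585970, near which replicate 1 had a peak of 597 bp (fold 1.88, 92 bp away) and replicate 2 a peak of 2050 bp over that start (fold 3.38).

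H3 genes were called without exception, 12 of 12, in both clusters. H3c2 lay with H2ac4 under peaks of 1594 bp and 1529 bp, with folds of 2.53 and 2.40, nearly the same interval in each replicate (1500 bp common). H3c11 had peaks of 1390 bp and 910 bp (folds 2.05 and 1.89), and H3c6 of 377 bp and 1912 bp (folds 1.82 and 2.05). H3c1 and the H4 gene H4c1 shared a replicate 1 peak of 1900 bp (fold 2.08) and the replicate 2 peak of 3682 bp at H1f1. H3c8 was the weakest of the H3 calls by position. A replicate 1 peak of 6689 bp (23529160 to 23535848, fold 2.35) ran over it from H4c8 and H2ac10. In replicate 2 a peak of 600 bp at H2ac10 (fold 3.21) reached its window by 76 bp without touching the gene.

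H4 genes were called in 7 of 12 cases, the lowest share of the core types, though no test of that difference was made. H4c3 (23698084 to 23698458) had the tallest histone peak, a replicate 1 peak of only 278 bp with a fold of 5.02 and a −log10 q of 4.28, and a replicate 2 peak of 574 bp with a fold of 3.19. H4c11 had peaks of 1064 bp and 1534 bp (folds 2.09 and 3.53). H4c8 lay under the long replicate 1 peak just named and had a peak of 1624 bp of its own in replicate 2 (fold 2.53). Of the uncalled H4 genes, 4 had a peak in 1 replicate. H4c6 (459 bp, fold 3.28) and H4c4 (982 bp, fold 2.77) had a peak in replicate 2 alone, and H4c2 (711 bp, fold 2.05) and H4c9 (1324 bp, fold 1.98) in replicate 1 alone. H4c12 had none, with the nearest peaks at 2840 bp and 3522 bp.

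On chromosome 3, 5 shared regions held the 10 genes. H2ac21, H2ac20 and H2bc21 lay at peaks of 1831 bp and 2476 bp (folds 1.83 and 2.57). H3c15 with H2ac19, and H2ac18 with H3c14, lie in mirrored order. The first had peaks of 1813 bp and 889 bp (folds 2.36 and 2.17) and the second of 1866 bp and 1656 bp (folds 2.16 and 2.14). H4c14 had peaks of 1633 bp and 1338 bp (folds 2.14 and 2.35), and H3c13 with H2bc18 of 2629 bp and 793 bp (folds 2.22 and 1.97). These folds stand close to the medians of all peaks, 2.17 in replicate 1 and 2.31 in replicate 2.

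**Figure D3:**
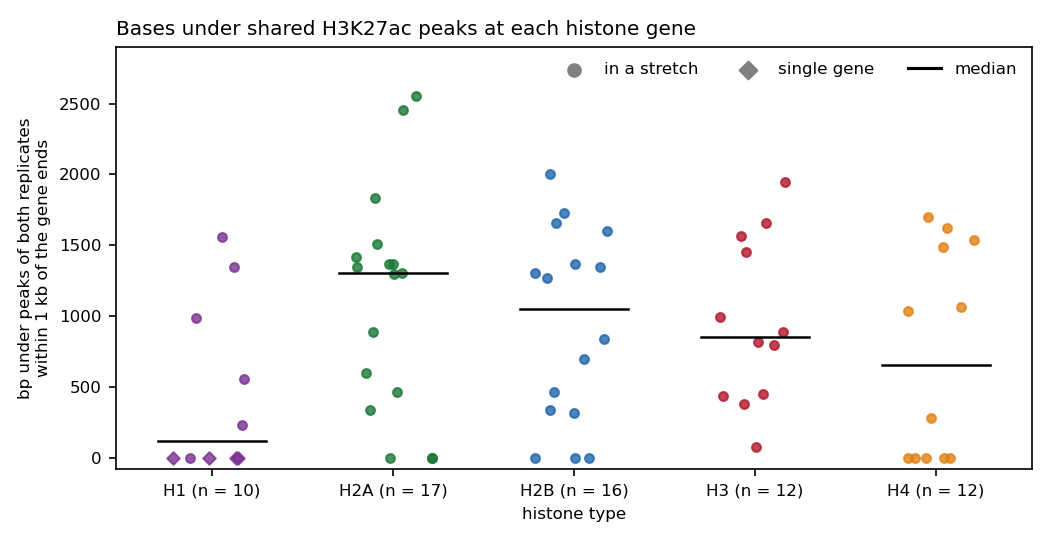
Each point is 1 histone gene, and its height is the number of bp within 1 kb of its ends under peaks of both replicates, by histone type, with the median as a line and single genes as diamonds. Medians are 117 bp for H1, 1303 bp for H2A, 1054 bp for H2B, 855 bp for H3 and 658 bp for H4, and the highest gene of each type stands above 1500 bp.

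Over all 67 genes the median was 889 bp covered by both replicates, and over the other protein-coding genes it was 0 bp. Called histone genes had a median of 1303 bp and called other genes 489 bp. These last medians are over genes chosen by their peaks and only describe them.

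Around the starts, acetylation was broad. At 200 bases after the start, peaks of both replicates covered 48.4% of the 62 histone genes, against 11.5% of 17430 other protein-coding genes with an annotated start. At 1000 bases before the start they covered 25.8% of histone genes and 0.752% of the others. At the start itself the values were 38.7% and 8.57%. The share of histone genes was thus lower at the start than at 500 bases before it, 43.5%, or at 350 bases after it, 53.2%. Windows of the head-to-head pairs overlap, and their part in this shape was not tested. By type, the start lay under peaks of both replicates in 8 of 17 H2A, 7 of 14 H2B, 4 of 10 H3, 5 of 11 H4 and 0 of 10 H1 genes. Gene bodies were wholly covered in both replicates at 19 genes, of which 6 were H2A, 4 H2B, 4 H3 and 5 H4.

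**Figure D4:**
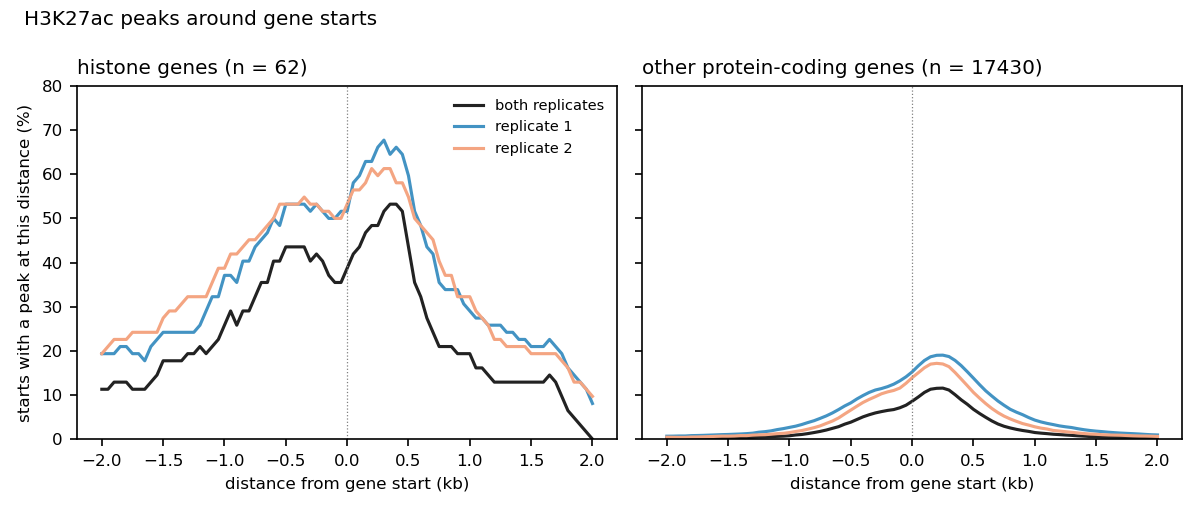
The x axis is the distance from the annotated start in kb, positive in the direction of the gene, and the y axis the percentage of starts with a peak at that distance, for both replicates, replicate 1 and replicate 2. Histone genes (left, n = 62) peak at 53.2% for both replicates, 350 bases after the start, and other protein-coding genes (right, n = 17430) at 11.5%.

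Histone gene peaks were wide, while their median fold was near that of all peaks in replicate 1 and above it in replicate 2. Their median width was 1488 bp in replicate 1 and 1529 bp in replicate 2, against 615 bp and 561 bp over all peaks and 758 bp and 679 bp over peaks at the ends of other protein-coding genes only. At least 1 kb was spanned by 24 of 31 (77.4%) in replicate 1 and 20 of 31 (64.5%) in replicate 2, against 28.3% and 22.1% of all peaks. Their median fold was 2.16 in replicate 1, against 2.17 over all peaks, and 2.56 in replicate 2, against 2.31. Across the 23 shared regions with 1 peak of each replicate, fold was higher in replicate 2 in 14 and in replicate 1 in 9, and Spearman's rho of fold between replicates was -0.0198. The rho of width was 0.501. These are descriptions over sites of the same 2 libraries. The replicates thus ordered the histone regions more alike by width than by fold.

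**Figure D5:**
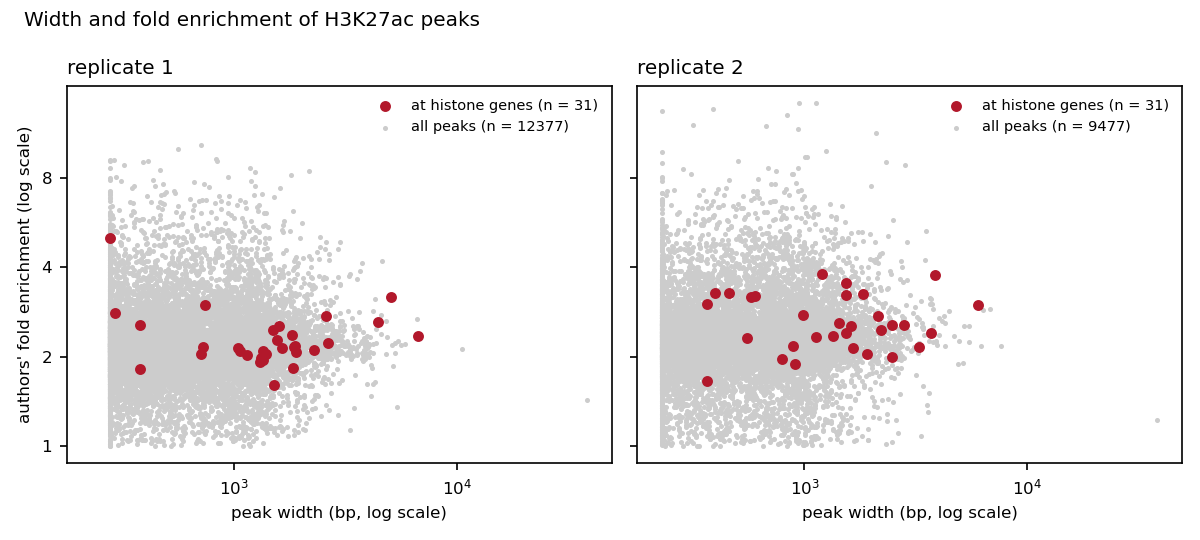
Peak width in bp (x, log scale) is plotted against the authors' fold enrichment (y, log scale), for the 31 histone gene peaks (red) over all peaks (grey) of each replicate. Histone peaks lie to the right, with medians of 1488 bp and 1529 bp, and at folds from 1.61 to 5.02 in replicate 1 and 1.66 to 3.78 in replicate 2.

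The histone peaks differed between replicates by the caller's own q-value. It was at most 0.05 for 8 of 31 in replicate 1 (25.8%, against 27.1% of all peaks) and for 19 of 31 in replicate 2 (61.3%, against 41.0%). With q of at most 0.05 in both replicates 7 of 67 histone genes were left (10.4%, where 2.64% of all protein-coding genes were called). They were H2ac24 with H4c18 (−log10 q of 1.43 and 4.10), H2ac4 with H3c2 (1.4 and 1.31), H2ac6 with H2bc4 (1.76 and 1.52) and H4c3 (4.28 and 2.10). All lie on chromosome 13. In replicate 1, 14 histone genes had such a peak (6.78% of all protein-coding genes did), and in replicate 2, 35 did (9.69%). With q of at most 1e-05 no histone gene had a peak in either replicate. Of all protein-coding genes 0.731% had one in both replicates, and beside so small a share none among 67 genes is no contrast.

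Near-identical gene copies limit what a peak at a single histone gene can say. Among 1891 pairs of the 62 promoters, 5 shared a run of at least 50 identical bases, and these pairs took in 10 genes. H4c17 and H4c18 shared 249 bases, H3c14 and H3c15 231, H2ac18 and H2ac19 169, H2ac23 and H2ac24 150, and H4c11 and H4c12 72. The coding parts of such genes are also known to be nearly the same. How reads that match several copies were placed is not given in the sources used here, so peaks at these copies are uncertain. H4c11 had peaks in both replicates while its partner H4c12 had none.

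Genes that serve histone supply were also read. Of 22 genes of histone gene transcription and mRNA 3′ processing, 10 were called (45.5%, against 16.8% of all protein-coding genes). They were Npat, the coactivator named above, Slbp, which binds the stem-loop, Cpsf2, Cstf2, Cramp1l, Eri1, Ncbp1, Pou2f1, Srrt and Yy1. Npat had peaks of 563 bp and 500 bp with folds of 1.61 and 1.22 and −log10 p of 22.9 and 16.8. It lies on chromosome 9, where the median fold of all peaks was 1.44 and 1.25 and the median −log10 p was 12.2 and 10.9, against 2.20 and 2.35, and 2.44 and 2.79, outside chromosomes 6, 9, 14 and 17. Cramp1l, on chromosome 17, had folds of 1.77 and 1.56 at its peaks of smallest p, which do not overlap each other. Near its ends 265 bp lay under peaks of both replicates. Cpsf2, part of the cleavage machinery, had folds of 2.38 and 4.13. A start at an annotated gene end was given for 13 of the 22, and at the 5′ end alone 4 of these 13 were called (30.8%, against 17% of all protein-coding genes with such a start). Npat, Cramp1l and Cpsf2 were among the 9 without one. Of the U7 particle subunits Lsm10 had no peak and Lsm11 had one in replicate 1 alone, as Hinfp, an activator of H4 genes, had in replicate 2 alone.

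Replication-independent histone variants were called in 6 of 9 cases (66.7%), and histone chaperones in 12 of 19 (63.2%), against 16.8% of all protein-coding genes. Among the variants H2ax, the variant phosphorylated at DNA breaks, had folds of 1.74 and 1.11 on chromosome 9, with a −log10 p of 31.6 in replicate 1. H2aj had folds of 2.02 and 5.91. At Macroh2a1 the peaks of smallest p lay at opposite ends of the gene, with a fold of 3.44 in replicate 1 and of 1.97 in replicate 2, and 119 bp near its ends lay under peaks of both. H2az2 and H3f3a were called as well. So was H2az1, though its replicate peaks share 0 bp there, and 5 of the 9 variants were called where the peaks had to overlap (16.2% of all protein-coding genes were). Cenpa had a peak in replicate 1 alone, and H3f3b and Macroh2a2 had none. Among the chaperones, which hand histones to DNA, Supt16 had folds of 1.83 and 1.49, Hjurp of 2.23 and 4.58, and Nap1l1 of 2.21 and 4.46. Asf1a, Chaf1a, Anp32e, Atrx, Daxx, Rbbp4, Ssrp1, Ubn1 and Ubn2 were also called. With q of at most 0.05 in both replicates, 2 of the 22, 1 of the 9 and 1 of the 19 genes were left, where 2.64% of all protein-coding genes were called. They were Npat and H2ax on chromosome 9, and Cramp1l and Chaf1a on chromosome 17. Both chromosomes are among those set apart above.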

How the data were processed

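H3K27ac peak lists of 2 replicates were used. Per the submitters' processing notes, Bowtie2 and MACS 1.4.2 were used with build mm10. The layout of 9 columns is that of MACS2, so the version is uncertain. Peak names show calling per sample after duplicate removal. The sources used here give neither the cutoff nor the control. Each peak's fold enrichment (a ratio), its −log10 p and its −log10 q are the authors' own, were deposited as such, and served to describe and filter. The deposited score, 10 times the −log10 q, was not used. The files hold no read counts, so depth is unknown and no interval can be given. Gene positions and promoters are RefSeq's (GRCm38.p6, the same build), 1-based.

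Windows, overlaps and covered bp were computed with Python 3.11.15, numpy 2.4.6 and pandas 2.3.3, and checked on simulated peaks. No test was made: only counts, medians and shares beside all protein-coding genes. Head-to-head pairs have starts within 1000 bp. The genes, lists, motifs and alternatives were chosen with earlier results of these data known. Named were all called genes, those with a peak in 1 replicate, all outside chromosomes 13 and 3, and, of each related list, the called genes, with values for the 3 of smallest summed p. Further genes named from these lists were chosen after their values were seen.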

Additional observations from a re-analysis of the deposited data

How the results depend on the processing

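Of 151 values under 12 alternatives, 118 stayed within 1.5 times the main count, or within 1 SD between replicates for covered bp. That SD, 561 bp, is of the bp covered by each replicate singly and does not measure the spread of bp covered by both. Bp covered by a single replicate or by either cannot be fewer than those covered by both, so a move there says little. The other 33 moved, most of them with stricter peaks. With q of at most 0.05 the counts were 7 for all histone genes, 7 on chromosome 13, 0 on chromosome 3, 0 for H1, 3 for H2A, 1 for H2B, 1 for H3 and 2 for H4. Of all protein-coding genes 2.64% were called at that limit. The related lists had 2 (transcription and processing), 1 (variants) and 1 (chaperones), and 7832 bp of the stretches were covered by both replicates, against 38070 bp with all peaks. With q of at most 1e-05 these were 0 for the histone genes, for each cluster and type and for covered bp, and 2, 1 and 0 for the lists. With the 10000 peaks of smallest p, 32652 bp were covered and 42 genes were called (62.7%, against 14.4% of all protein-coding genes). This setting trimmed replicate 1 only, since replicate 2 had 9477 peaks in all. With a peak in either replicate, 60 were called (89.6%, against 30.5%), including 11 of H4 and 1 single gene, 18 genes of transcription and processing were called, and 71295 bp were covered. Without replicate 1 or replicate 2, the counts were 55 to 56 histone genes, 0 to 1 single genes and 54286 to 55079 bp. With the 5′ end only, 4 of 13 genes of transcription and processing with a start at a gene end were called, and 46 of 62 histone genes (74.2%), against 17% of all such genes. The other settings gave, against all protein-coding genes, 47 histone genes with a window of 250 bp (70.1%, against 13%), 53 with 2.5 kb (79.1%, against 18.9%), 51 with overlapping peaks (76.1%, against 16.2%) and 50 with a covered minimum of 100 bp (74.6%, against 16.6%). Leaving out chromosomes 6, 9, 14 and 17 gave 51 of 65 (78.5%, against 16.9%). No paired analysis was possible because there is only 1 group. Depth is unknown, so an absent peak does not show absent acetylation.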

Other observations

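Of 10 other protein-coding genes inside the histone stretches, 2 had gene-end peaks of both replicates, a share near the 16.8% of all protein-coding genes. H4bc24, as the annotation spells it, has the form of a histone symbol that the rule did not match. It lies beside H2ac24, within its window, and shares its peaks. Zfp184, a zinc finger gene in the first chromosome 13 stretch, had peaks of 965 bp and 520 bp with folds of 2.19 and 3.22. Prss16, Pom121l2, Hfe, Trim38 and the 4 Slc17a genes had none in either replicate. Of 31 tRNA genes in the first stretch, 1 (n-TMcat8) had gene-end peaks of both replicates and none lay under peaks of both.

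Between the stretches of chromosome 13, an interval of 1487 kb with 41 protein-coding genes, of which 36 are vomeronasal receptor genes by symbol, had 1 called gene, Zfp322a, and 0.781 bp per kb covered by both replicates. That is below the 1.29 bp per kb of the whole chromosome and far below the 42.6 and 44.4 bp per kb of the stretches at its sides.

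The small histone group of chromosome 11, which the symbols did not take in, was chosen after its values were seen. H2aw had peaks of 1001 bp and 2439 bp (folds 2.63 and 2.17), and H2bu2 of 278 bp and 387 bp (folds 1.87 and 2.60), so both were called.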
